A study of Mus musculus with 12 samples.

Results

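The NF-kB genes examined here are 10 members of a transcription factor pathway, of 13574 genes listed in the 2 count tables together. They were taken by symbol, and all 10 had a row in the table of each time and passed the filter on low counts in every fit. *Rel*, *Rela*, *Relb*, *Nfkb1* and *Nfkb2* encode the 5 DNA-binding subunits, and *Nfkbia*, *Nfkbie*, *Nfkbid*, *Nfkbiz* and *Tnfaip3* encode 5 inhibitors and regulators. The smallest number of reads for any member in any library was 317.

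NF-kB subunits pair with each other and are held in the cytoplasm by IkB proteins until the IkB kinase (IKK) marks those inhibitors for degradation. The freed pairs then enter the nucleus and bind kappaB sites, and several of the genes they act on encode NF-kB subunits and IkB proteins themselves. In mature B cells the subunit c-Rel is abundant, and the pathway is known for its part in activation, survival and proliferation after antigen receptor, CD40 or Toll-like receptor signals.

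The cells were follicular B cells sorted as CD21/35- and CD23+ from spleens of adult male mice. They were Gpr174+/Y (WT) or Gpr174-/Y (KO), in which the reporter tdTomato takes the place of the receptor's coding exon, and GPR174 is a receptor coupled to cAMP signaling. RNA came from freshly sorted cells (0 h, called uncultured) or from cells kept for 4 h in complete RPMI, a culture medium, with no stimulus added (cultured). Each of the 4 groups of genotype and time held 3 libraries, and the labels do not say whether the libraries of the 2 times came from the same mice.

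Library totals were 6098941 to 11618787 reads. *Gpr174* was at 150 to 157 counts per 1000000 reads (CPM) in uncultured WT libraries against 73.4 to 76.7 in uncultured KO, and at 153 to 169 in cultured WT against 105 to 118 in cultured KO, so every KO library was below every WT library of its time but still held reads of the gene. The summed level of 7 B cell markers was 6990 to 7810 CPM at 0 h, 5620 to 5850 in cultured WT and 6610 to 6780 in cultured KO. Among them *Fcer2a*, which encodes CD23, was at 535 to 555 CPM in cultured WT and 968 to 1060 in cultured KO, and *Cr2*, which encodes CD21/35, was still at 841 to 1080 CPM at 0 h although the gate was negative for it. The sums over the libraries were 18.2 to 33.5 CPM for 6 T cell markers (*Cd3e* 0.124 to 2.78), 79.4 to 131 for 4 plasma cell markers and 235 to 287 for 5 marginal zone markers. The 4 neutrophil markers summed to 19.4 to 53.9 CPM in uncultured WT and 22.2 to 56.6 in cultured WT, against 37.5 to 121 in uncultured KO and 21.2 to 116 in cultured KO, so the highest libraries were KO libraries and the groups overlapped. Macrophage markers summed to 53 to 64.4 CPM at 0 h and to 23.2 to 42.8 at 4 h, when *C1qa*, *C1qb* and *C1qc* of the 7 were not listed. Marker levels were scaled within each time, so those at 0 h and at 4 h are on separate scales. The part of these shifts in the results below was not tested. In such bulk libraries a lower level can be fewer cells with the RNA or less RNA per cell, and these cannot be told apart.

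The promoters of 5 members whose levels moved in WT culture, or whose calls at 4 h are described below, are shown first, so that their kappaB letters can be read beside the values. The sequences are the 250 bases before the RefSeq start (GRCm38.p6), 5′ to 3′ on the gene's strand. Capitals mark matches to the kappaB consensus, searched on both strands, and in *Nfkbid* also the cAMP response element TGACGTCA. For *Nfkb2* and *Nfkbid* 1 of 3 listed starts is shown, the one with the most matches. The other 2 windows of *Nfkb2* held matches too, and the other 2 of *Nfkbid* held none. The intervals are chr11:23770970-23771219 (minus strand) for *Rel*, chr19:46304487-46304736 (plus) for *Nfkb2*, chr12:55492648-55492897 (minus) for *Nfkbia*, chr17:45555450-45555699 (plus) for *Nfkbie* and chr7:30422156-30422405 (plus) for *Nfkbid*.
Rel: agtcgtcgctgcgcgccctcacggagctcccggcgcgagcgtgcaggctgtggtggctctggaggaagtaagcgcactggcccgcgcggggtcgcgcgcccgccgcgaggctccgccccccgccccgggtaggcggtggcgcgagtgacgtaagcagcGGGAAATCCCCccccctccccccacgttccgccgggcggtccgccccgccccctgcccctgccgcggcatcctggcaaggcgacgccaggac
Nfkb2: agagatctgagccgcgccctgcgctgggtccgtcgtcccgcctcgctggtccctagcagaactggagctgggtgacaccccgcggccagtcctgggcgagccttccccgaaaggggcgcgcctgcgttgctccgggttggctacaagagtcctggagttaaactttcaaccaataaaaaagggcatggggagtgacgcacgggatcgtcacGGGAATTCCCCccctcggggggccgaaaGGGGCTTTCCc
Nfkbia: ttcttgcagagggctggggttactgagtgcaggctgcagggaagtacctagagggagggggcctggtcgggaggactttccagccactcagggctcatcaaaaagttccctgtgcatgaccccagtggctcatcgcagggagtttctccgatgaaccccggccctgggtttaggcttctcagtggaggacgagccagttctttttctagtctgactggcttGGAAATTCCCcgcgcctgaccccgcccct
Nfkbie: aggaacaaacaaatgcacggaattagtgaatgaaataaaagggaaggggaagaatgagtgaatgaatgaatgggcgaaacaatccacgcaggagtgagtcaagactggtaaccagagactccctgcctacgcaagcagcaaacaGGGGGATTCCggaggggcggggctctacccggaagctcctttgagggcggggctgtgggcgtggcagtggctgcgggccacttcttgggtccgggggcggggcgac
Nfkbid: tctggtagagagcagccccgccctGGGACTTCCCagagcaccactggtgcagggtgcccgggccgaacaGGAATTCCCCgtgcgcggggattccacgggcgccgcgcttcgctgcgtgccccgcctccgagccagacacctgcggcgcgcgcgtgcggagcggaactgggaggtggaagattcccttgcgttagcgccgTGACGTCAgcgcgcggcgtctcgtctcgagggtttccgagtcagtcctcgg

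RefSeq promoter windows of 300 bases (250 before to 50 after the start) matched 7 of the 10 members, with 12 windows. *Nfkb1*, *Relb* and *Nfkbiz* had no entry. A kappaB match was in 8 of the 12 windows and in 6 of the 7 members, while the *Rela* window held none. A match was held by 8.46% of all 32817 windows given and by 10.3% of the 12012 windows of counted genes. These shares are per window and do not apply to the count of members. The *Nfkb2* windows not shown above overlap each other and share a kappaB match, so the member windows are not all separate. The matches lay from -92 to -82 in *Rel* (a pair that overlap), from -39 to -29 (a pair that overlap) and from -11 to -2 in *Nfkb2*, from -29 to -20 in *Nfkbia*, from -106 to -97 in *Nfkbie*, and from -226 to -217 and -181 to -172 in *Nfkbid*. The full cAMP response element was in 1 member window, that of *Nfkbid* from -51 to -44, against 1.79% of all windows and 3.0% of those of counted genes. Its first 5 bases, TGACG on either strand, were in 5 of the 12 member windows, against 20.8% and 29.8%, and that count includes the full element. A match is a run of letters, not a bound site.

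**Figure D1:**
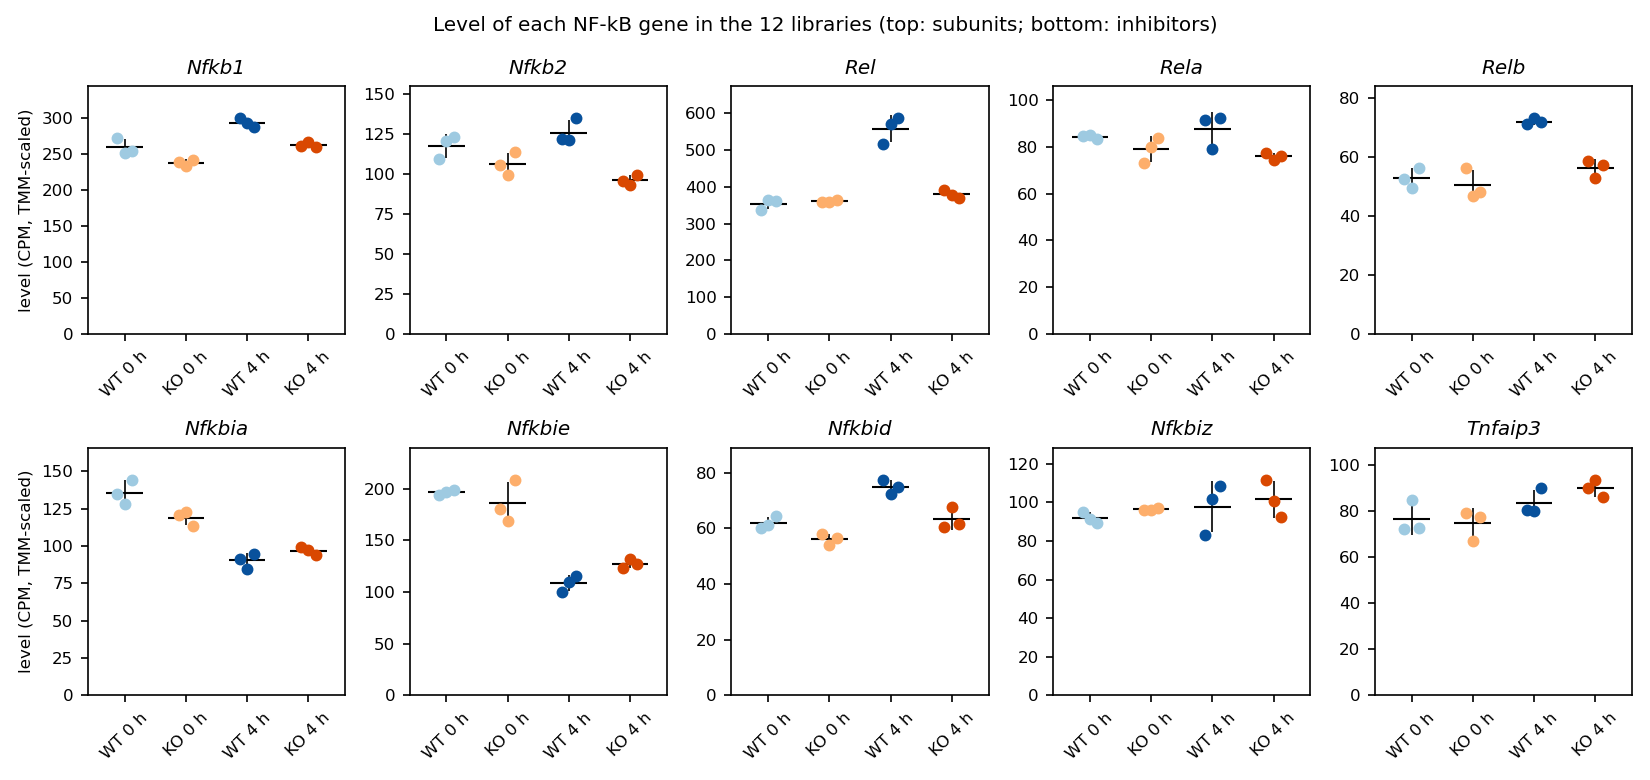
Level of each member in CPM on TMM-scaled library sizes (vertical axes, each from 0) in the 12 libraries by group; points are libraries, horizontal bars are means and vertical bars 1 SD (n = 3). *Rel* sat at 516.8 to 586.7 in cultured WT and at 337.5 to 390.5 in the other 9 libraries, and *Nfkbie* and *Nfkbia* were lower in all 4 h libraries than in all 0 h libraries.

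The first comparison asked whether the genotypes differed in NF-kB genes before culture. At 0 h none of the 10 members was called differentially expressed between WT and KO by edgeR's quasi-likelihood test, where a call is a Benjamini-Hochberg adjusted p under 0.05 over all genes tested. DESeq2 also called 0, 2 members had an unadjusted p under 0.05, and 0.987% of all 11345 genes were called. The log2 fold changes of WT over KO ran from -0.08 for *Nfkbiz* to 0.18 ± 0.07 (SE) for *Nfkbia*, whose adjusted p of 0.233 was the smallest of the 10 (edgeR). The groups did not overlap for 4 members, with *Nfkb1*, *Nfkbia* and *Nfkbid* higher in all WT libraries and *Nfkbiz* higher in all KO libraries, and 18.1% of all genes had groups that did not overlap. The median over the 10 members was 0.0803 on the log2 scale, beside 0.000258 over all genes.

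After 4 h the genotypes differed in NF-kB subunits. *Rel*, *Nfkb2* and *Relb* had higher levels in WT than in KO, by 1.47, 1.31 and 1.28 fold, and *Nfkbie* was lower in WT with a call that depended on the fit. Called by edgeR were 4 of 10 members, against 10.9% of all 11123 genes. Of these, 3 were higher in WT (5.22% of all genes) and 1 was higher in KO (5.67% of all genes). The number higher in WT was 5 without WT 4 h replicate 2 and also with all 12 libraries in the fit, and the number higher in KO was 0 in 9 of the 13 alternatives. All 5 subunits and *Nfkbid* were higher in every WT library than in every KO library, and *Nfkbie* was higher in every KO library. That makes 7 of 10 members with groups that did not overlap, against 27.9% of all genes. The median log2 fold change was 0.36 over the 5 subunits and -0.0976 over the 5 inhibitors, beside 0.00483 over all genes.

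*Rel* (chr11:23736847-23770970, minus strand, GRCm38) encodes c-Rel. It was at 337.5, 364.4 and 361.3 CPM in WT 0 h replicates 1 to 3 and at 360.3, 359.7 and 365.2 in uncultured KO, and in cultured WT it was at 516.8, 571.2 and 586.7 against 390.5, 379.1 and 369.3 in cultured KO. The uncultured groups overlapped, whereas every cultured WT library stood above all the other libraries. The 4 h difference was 0.56 ± 0.06 on the log2 scale (adjusted p = 1.48e-05, edgeR), and at 0 h it was -0.04 ± 0.05 with an interval of -0.14 to 0.06. The 4 h call held in all 13 alternatives, with log2 fold changes of 0.52 to 0.60.

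*Relb* (chr7:19606217-19629438, minus strand) encodes RelB, which pairs mostly with the product of *Nfkb2* in the non-canonical branch. Its level was 52.71, 49.66 and 56.27 CPM in uncultured WT, 56.37, 46.96 and 48.16 in uncultured KO, 71.16, 73.19 and 71.93 in cultured WT and 58.61, 52.83 and 57.22 in cultured KO. All cultured WT libraries lay above the 9 others. The difference at 4 h was 0.36 ± 0.07 (adjusted p = 0.00424, edgeR).

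*Nfkb2* (chr19:46304320-46312385, plus strand) encodes a precursor that is cut to a DNA-binding subunit and holds RelB back until then. Uncultured WT libraries were at 109.3, 120.5 and 123.4 CPM, uncultured KO at 105.5, 99.25 and 113.7, cultured WT at 122.0, 121.2 and 135.0 and cultured KO at 96.02, 93.47 and 99.76. WT exceeded KO in each library at 4 h, by 0.39 ± 0.07 (adjusted p = 0.000979, edgeR), while the 0 h groups overlapped. The annotation puts 830 of its exon bases also in *Psd* and a further model, and since the strand setting of the counting was not given, reads there cannot be assigned to a gene. The calls of *Relb* and *Nfkb2* held in all 13 alternatives.

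*Nfkb1* (chr3:135584655-135691547, minus strand), whose product is the usual partner of c-Rel and RelA, was at 272.2, 251.8 and 254.0 CPM in uncultured WT, 239.2, 232.7 and 241.5 in uncultured KO, 299.3, 293.4 and 286.6 in cultured WT and 260.5, 265.9 and 259.7 in cultured KO. WT libraries were above KO libraries at both times, yet neither difference was called (0.12 ± 0.05 at 0 h, adjusted p = 0.369, and 0.16 ± 0.06 at 4 h, adjusted p = 0.0775, edgeR). *Rela* (chr19:5637483-5648130, plus strand), which encodes the main activating subunit of most cell types, was at 78.98 to 92.29 CPM in cultured WT and 74.34 to 77.45 in cultured KO. Its difference of 0.21 ± 0.07 missed the threshold (adjusted p = 0.0914, edgeR) and passed it without WT 4 h replicate 2, the lowest WT library (0.27, adjusted p = 0.0211). *Nfkb1* passed at 4 h when all 12 libraries shared 1 fit (adjusted p = 0.0481).

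**Figure D2:**
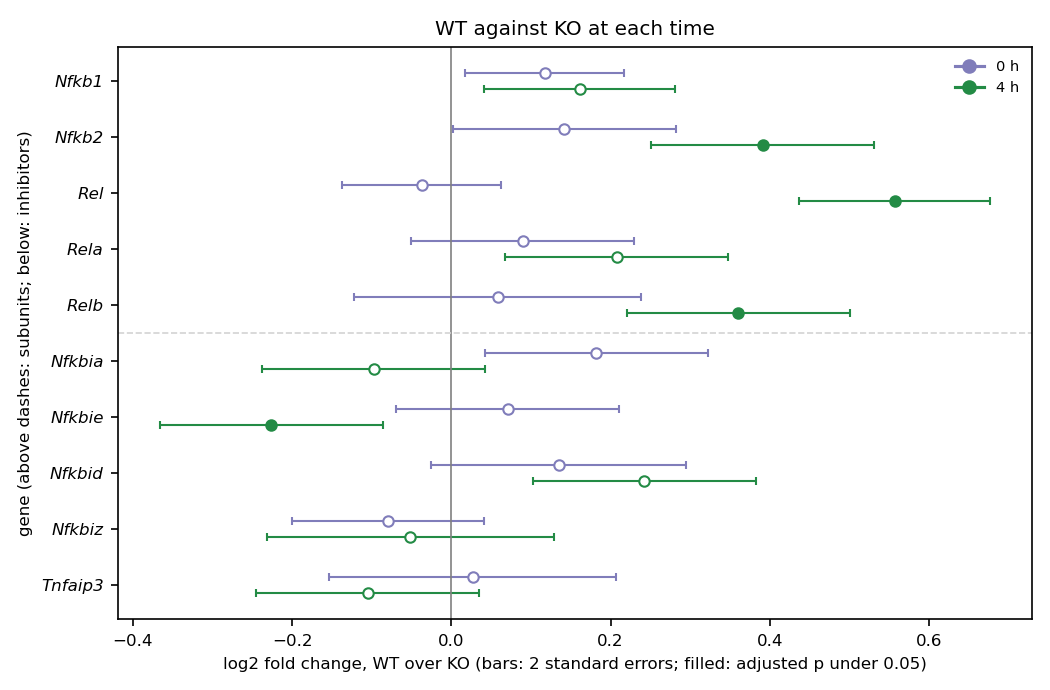
Log2 fold change of WT over KO (horizontal axis) for each member at 0 h (purple) and 4 h (green), with bars of 2 standard errors; filled points passed an adjusted p under 0.05. No point is filled at 0 h, and at 4 h *Rel* (0.56), *Nfkb2* (0.39), *Relb* (0.36) and *Nfkbie* (-0.23) are.

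*Nfkbie* (chr17:45555703-45563169, plus strand) encodes IkB epsilon, an inhibitor that holds c-Rel and RelA and is prominent in B cells. Its level was 194.2, 196.6 and 198.2 CPM in uncultured WT and 180.5, 168.7 and 208.5 in uncultured KO, then 100.4, 109.6 and 115.7 in cultured WT and 123.4, 131.5 and 126.8 in cultured KO. The uncultured groups overlapped and the cultured groups did not. The 4 h difference was -0.23 ± 0.07 (adjusted p = 0.0446, edgeR). It had the same sign in all 13 alternatives but was called in 4 of them. The adjusted p was 0.116 without WT 4 h replicate 1, 0.0567 with WT 4 h replicate 2 left out, 0.0817, 0.174 and 0.116 without KO 4 h replicates 1, 2 and 3, and 0.0673 by DESeq2. KO 4 h replicate 2 was the library with the highest *Nfkbie* and also with the highest neutrophil marker *S100a8* of that group (37.8 CPM). Without it the difference was -0.20. At 0 h the order was the other way, as KO 0 h replicate 2 had the highest *S100a8* (33 CPM) and the lowest *Nfkbie* (168.7) of its group. Whether the marker bears on *Nfkbie* was not tested.

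*Nfkbia* (chr12:55489410-55492647, minus strand) encodes IkB alpha, the fast-turning inhibitor that NF-kB itself induces. It was at 134.7, 128.0 and 144.2 CPM in uncultured WT, 120.9, 123.0 and 113.0 in uncultured KO, 91.49, 84.61 and 94.71 in cultured WT and 99.31, 97.29 and 93.64 in cultured KO. WT was above KO in each library at 0 h, and at 4 h the groups overlapped with the KO mean above the WT mean. Neither difference was called (at 4 h -0.10 ± 0.07, adjusted p = 0.43, edgeR).

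*Nfkbid* and *Nfkbiz* encode atypical nuclear IkB proteins that bind subunits on DNA and can raise or lower transcription. *Nfkbid* (chr7:30421732-30428746, plus strand) was at 60.15, 61.09 and 64.58 CPM in uncultured WT, 57.88, 54.07 and 56.42 in uncultured KO, 77.45, 72.25 and 74.99 in cultured WT and 60.46, 67.77 and 61.57 in cultured KO. WT libraries were above KO libraries at both times, and at 4 h the difference of 0.24 ± 0.07 lay at the threshold (adjusted p = 0.0501, edgeR). It was called when replicate 2 of WT 4 h (0.0475) or of KO 4 h (0.0497) was left out, and with all 12 libraries in the fit (0.0332). *Nfkbiz* (chr16:55811375-55838899, minus strand) was at 89.32 to 95.07 CPM in uncultured WT, 96.29 to 97.15 in uncultured KO, 82.94 to 108.3 in cultured WT and 92.42 to 111.7 in cultured KO. Its 4 h groups overlapped (-0.05 ± 0.09, adjusted p = 0.803, edgeR).

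*Tnfaip3* (chr10:19000910-19015657, minus strand) encodes an enzyme that edits ubiquitin chains and shuts off signals to IKK. It was at 72.2, 84.85 and 72.79 CPM in uncultured WT, 79.37, 67.11 and 77.47 in uncultured KO, 80.36, 79.92 and 89.97 in cultured WT and 90.09, 93.59 and 86.17 in cultured KO. The genotypes overlapped at both times and the 4 h difference was -0.10 ± 0.07 (adjusted p = 0.421, edgeR), with an interval of -0.25 to 0.04.

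The next comparisons asked how the members changed during culture in each genotype. In WT cells 6 of 10 members changed, against 33.1% of all 11572 genes. *Rel*, *Relb*, *Nfkbid* and *Nfkb1* rose (4 members, 15.1% of all genes) and *Nfkbia* and *Nfkbie* fell (2 members, 18.0% of all genes). In KO cells 3 members changed, against 23.3% of all genes. *Tnfaip3* rose (1 member, 10.3% of all genes), *Nfkbia* and *Nfkbie* fell (2 members, 13.0% of all genes) and none of the 5 subunits was called by edgeR in the fit of 12 libraries, with 1 at an unadjusted p under 0.05 and 1 called by DESeq2, *Nfkb1* in both. *Nfkb1* was also called by edgeR when the fit held only the 2 KO groups (0.14, adjusted p = 0.0299). The groups of the 2 times did not overlap for 6 members in WT (40.9% of all genes) and for 6 in KO (41.9%).

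*Rel* rose 1.58 fold in WT (0.66 ± 0.06, adjusted p = 4.88e-09, edgeR) and was at 1.05 fold in KO without a call (0.07 ± 0.06, adjusted p = 0.407). *Relb* rose 1.36 fold in WT (0.44 ± 0.08, adjusted p = 0.000196, edgeR), and its KO value was 0.15 ± 0.08 (adjusted p = 0.214). *Nfkb1* rose 1.13 fold in WT (adjusted p = 0.0112, edgeR) and was 1.10 fold in KO (adjusted p = 0.0561). The KO value passed without replicate 1 of WT 0 h (adjusted p = 0.0465) or of WT 4 h (0.05), libraries that enter through the shared estimate of spread, and it was called in 5 of the 20 alternatives. *Nfkb2* and *Rela* were not called in either genotype, at 0.10 and 0.06 in WT and -0.14 and -0.05 in KO.

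*Nfkbie* fell by 0.85 on the log2 scale in WT (1.80 fold lower, adjusted p = 5.18e-09, edgeR) and by 0.55 in KO (1.46 fold lower, adjusted p = 6.11e-06). *Nfkbia* fell by 0.59 in WT (1.5 fold lower, adjusted p = 4.82e-07, edgeR) and by 0.30 in KO (1.23 fold lower, adjusted p = 0.00235). These 4 calls held in all 20 alternatives, and both inhibitors were lower in all 6 cultured libraries than in all 6 uncultured ones. None of the other 3 inhibitors was called lower. *Nfkbid* rose in WT (0.27 ± 0.07, adjusted p = 0.00528, edgeR) and was at 0.17 ± 0.07 in KO (adjusted p = 0.0978). *Tnfaip3* rose in KO (0.27 ± 0.08, adjusted p = 0.0219, edgeR) and was at 0.13 ± 0.08 in WT (adjusted p = 0.248), but its KO call was lost without KO 0 h replicate 2 (0.123), KO 4 h replicate 1 (0.0588) or KO 4 h replicate 2 (0.0895). *Nfkbiz* was called in neither genotype.

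**Figure D3:**
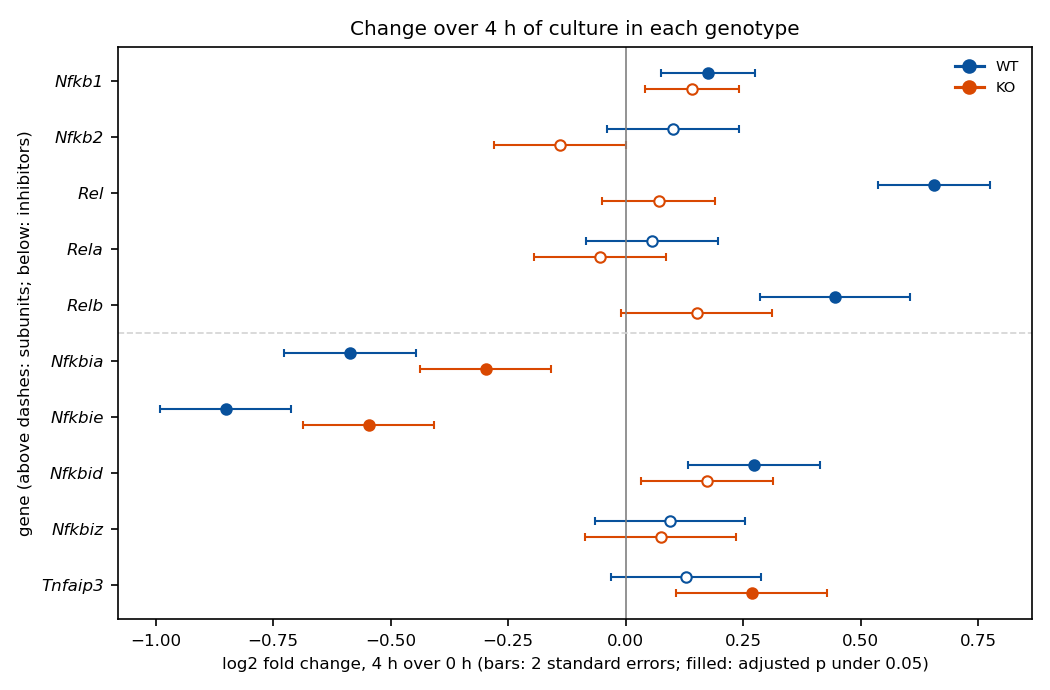
Log2 fold change over 4 h of culture (horizontal axis) for each member in WT (blue) and KO (orange), with bars of 2 standard errors; filled points passed an adjusted p under 0.05. *Rel* is at 0.66 in WT and 0.07 in KO, and *Nfkbie* and *Nfkbia* are below 0 in both genotypes.

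The size of these culture changes depended on how libraries were scaled. With library totals in place of TMM factors the median log2 change of all genes moved from 0.00483 to 0.11 in WT and from 0.00162 to 0.092 in KO. The split of all calls went from 1750 up and 2080 down to 3001 up and 1500 down in WT, and from 1193 up and 1504 down to 2168 up and 1101 down in KO. Under totals *Nfkb1* (0.23), *Relb* (0.24) and *Nfkbid* (0.26) were also called up in KO, and *Nfkb2* (0.21) and *Tnfaip3* (0.24) in WT. *Rel* in KO stayed uncalled under totals (0.16, adjusted p = 0.0581, edgeR), and the falls of *Nfkbia* and *Nfkbie* kept their sign and call.

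Whether the culture change differed between genotypes was tested directly, as the WT change minus the KO change. Of the 10 members 1 was called, *Rel*, at 0.59 ± 0.08 on the log2 scale (adjusted p = 2.96e-05, edgeR), and 6.39% of all genes were called (2.45% above 0 and 3.94% below 0). It ranked at place 103 of 11572 genes by p and was called in all 19 alternatives, at 0.55 to 0.64. *Nfkbia* (-0.29 ± 0.09, adjusted p = 0.0785) and *Nfkbie* (-0.30 ± 0.10, adjusted p = 0.0834, edgeR) had larger WT falls with interactions that missed the threshold, so these falls are not shown to differ from those in KO. *Nfkbie* passed without KO 0 h replicate 3, its highest library (-0.39, adjusted p = 0.0134). *Relb* and *Nfkb2* were at 0.29 ± 0.12 (adjusted p = 0.173) and 0.24 ± 0.10 (adjusted p = 0.196, edgeR), and none of the 5 inhibitors was called by edgeR or by DESeq2, with 2 at an unadjusted p under 0.05.

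The balance of the c-Rel transcript against those of its inhibitors was read as a ratio of reads within each library, which no scaling between libraries can move. Reads of *Rel* per read of *Nfkbia* were 2.51 to 2.85 in uncultured WT, 2.93 to 3.23 in uncultured KO, 5.65 to 6.75 in cultured WT and 3.90 to 3.94 in cultured KO. Per read of *Nfkbie* they were 1.74 to 1.85, 1.75 to 2.13, 5.07 to 5.21 and 2.88 to 3.16 in the same order. Both ratios were higher in all cultured than in all uncultured libraries, and after culture in all WT than in all KO libraries. Before culture the ratio to *Nfkbia* was higher in all KO than in all WT libraries, and for *Nfkbie* the genotypes overlapped. With 3 libraries against 3 an exact permutation test cannot go below 0.1, so these ratios are given as values. *Nfkbid* reads per *Nfkbia* read also separated the cultured genotypes (0.792 to 0.854 in cultured WT, 0.609 to 0.697 in cultured KO). *Tnfaip3* per *Nfkbia* (0.878 to 0.95 against 0.907 to 0.962) and *Nfkbiz* per *Nfkbia* (0.907 to 1.2 against 0.987 to 1.12) did not. Among subunits, *Rel* per *Rela* was higher in cultured WT (5.64 to 7.23 against 4.84 to 5.1) and *Nfkb1* per *Nfkb2* lower (2.12 to 2.45 against 2.6 to 2.85). How many pairs of other genes separate was not counted.

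**Figure D4:**
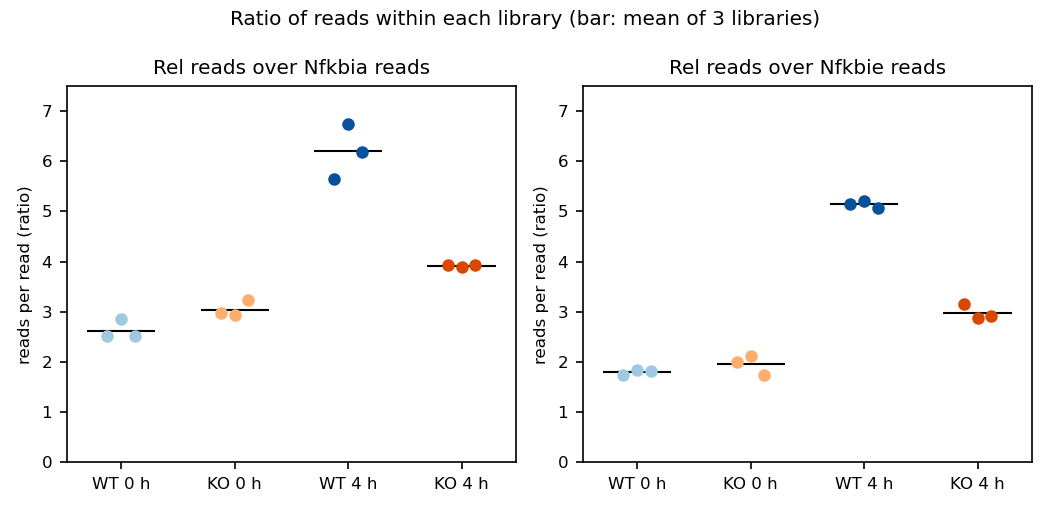
Reads of *Rel* divided by reads of *Nfkbia* (left) and of *Nfkbie* (right) in each library (vertical axes, from 0), by group; bars are means of 3 libraries. The cultured WT libraries are highest in both panels (5.65 to 6.75 and 5.07 to 5.21).

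Levels of different genes were compared only per kilobase of exon (CPM per kb, union of annotated exons). In uncultured WT the order was *Nfkbia* (84.2 ± 5.0, SD, n = 3), *Nfkbie* (64.5 ± 0.66), *Rel* (47.5 ± 2.0), then *Rela*, *Nfkbid* and *Nfkb2* at 27.5 to 25.7 with overlapping neighbours, then *Nfkb1* (21.5), *Nfkbiz* (18.3), *Relb* (13.6) and *Tnfaip3* (10.6). Uncultured KO gave the same order with *Nfkb1* and *Nfkbiz* overlapping as well. In cultured WT *Rel* (74.8 ± 4.9) stood first, above *Nfkbia* (56.1 ± 3.2) and *Nfkbie* (35.7 ± 2.5), which overlapped *Nfkbid* (31.9). In cultured KO *Nfkbia* (60.1 ± 1.8) stayed above *Rel* (50.9 ± 1.4) and *Nfkbie* (41.8 ± 1.3).

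That order rests on the lengths used. Per kilobase of coding sequence *Rel* was first in uncultured WT (201) and uncultured KO (205) already. Per kilobase of the longest transcript *Nfkb1* moved up from place 7 to place 3 in uncultured WT (62.5, above *Rel* at 47.5) and was first in cultured KO (63.2, against 50.9 for *Rel*), while *Rel* (74.8) stayed first in cultured WT, ahead of *Nfkb1* (70.6). As a share of the 5 subunits' summed level per kb, *Rel* was 35.0%, 37.3%, 43.0% and 38.3% in uncultured WT, uncultured KO, cultured WT and cultured KO by the union of exons, 48.5%, 51.1%, 56.7% and 51.5% by coding length, and 25.3%, 27.2%, 32.1% and 27.6% by the longest transcript. The value of the share moved with the length, but by each of these lengths it was highest in cultured WT. By the longest transcript the share of *Nfkb1* was 33.3%, 32.2%, 30.4% and 34.3% in the same order, above that of *Rel* in all groups but cultured WT.

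Genes of the pathway around these members were read from 3 lists. The first list held 21 genes of IKK and mostly of the steps above it, with *Btrc* and *Fbxw11* acting after IKK. Of these 21, edgeR called 0 at 0 h (2 at an unadjusted p under 0.05, 1 by DESeq2), when 0.987% of all genes were called. At 4 h it called 2 (9.52% of the list, against 10.9% of all genes), both lower in WT, namely *Prkcb* (-0.56, adjusted p = 3.51e-05) and *Ikbkb* (-0.29, adjusted p = 0.0184), with a list median of -0.0132 beside 0.00483 over all genes. *Prkcb* encodes a protein kinase C that acts below the B cell receptor and *Ikbkb* a catalytic subunit of IKK. *Prkcb* was at 1251 to 1313 CPM in uncultured WT, 1236 to 1285 in uncultured KO, 591 to 670.3 in cultured WT and 880 to 996.4 in cultured KO. It fell in both genotypes and was lower in every WT than in every KO library after culture.

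Culture changed 10 of the 21 in WT (4 up, 6 down), which is 47.6% against 33.1% of all genes, and 6 in KO (1 up, 5 down), which is 28.6% against 23.3%, a share near that of all genes. The lowest log2 fold changes in WT were those of *Ikbke*, a kinase related to the IKK subunits (-1.08), *Prkcb* (-1.03) and *Ikbkb* (-0.79). The highest were those of *Btrc*, which recognises marked IkB proteins for degradation (0.53), *Birc3*, a ubiquitin ligase of receptor complexes (0.49), and *Tab1*, a partner of the kinase above IKK (0.49). In KO *Ikbke* (-0.67), the adaptor gene *Traf3* (-0.51) and *Prkcb* (-0.46) fell and *Birc3* (0.32) rose. *Traf3* was called lower in WT as well (-0.73). The call of *Ikbke* in KO was lost in 4 of the 12 fits with a library left out (each of replicates 1 and 2 of KO 0 h and KO 4 h), and that of *Tab1* in 2 (without WT 0 h replicate 2 or WT 4 h replicate 1). The interaction was called for *Prkcb* (-0.57, adjusted p = 5.95e-05) and *Ikbkb* (-0.38, adjusted p = 0.0204, edgeR), 9.52% of the list against 6.39% of all genes. The calls of *Prkcb* held in every alternative. That of *Ikbkb* at 4 h was lost without WT 4 h replicate 1 (0.0551), WT 4 h replicate 3 (0.0761), KO 4 h replicate 1 (0.0504) or KO 4 h replicate 2 (0.105), and its interaction was called in 7 of the 12 fits with a library left out.

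Of 18 genes listed as other IkB proteins and negative regulators, edgeR called 0 at 0 h (5 at an unadjusted p under 0.05, 0 by DESeq2), when 0.987% of all genes were called. At 4 h it called 5 (27.8%, against 10.9% of all genes), with a list median of -0.0154. The list also holds *Rnf31*, *Rbck1* and *Sharpin*, genes of a linear ubiquitin ligase that promotes signals to IKK. Its counts and median are therefore not of negative regulators only. Higher in WT were *Bcl3* (0.75, adjusted p = 1.88e-06), an atypical IkB protein that pairs with products of *Nfkb1* and *Nfkb2*, and *Zc3h12a* (0.41, adjusted p = 0.0104), an RNase that degrades inflammatory transcripts. Lower in WT were *Pdlim2* (-0.50), *Tnip2* (-0.44) and *Fam105b* (-0.38), the last being the tables' name for the deubiquitinase gene *Otulin*. *Bcl3* rose in WT culture (0.60 ± 0.07, adjusted p = 7.41e-07, edgeR) and fell in KO culture (-0.33 ± 0.07, adjusted p = 0.00221), and its interaction was 0.93 ± 0.10 (adjusted p = 2.59e-06). At 4 h the difference of *Bcl3* between genotypes had the same sign as those of *Rel*, *Relb* and *Nfkb2*. At 0 h that of *Bcl3* was -0.19 without a call (adjusted p = 0.277, edgeR). Without KO 4 h replicate 1 the adjusted p was 0.0691 for *Zc3h12a* and 0.0731 for *Tnip2*, without KO 4 h replicate 2 it was 0.0743 for *Fam105b* and 0.0543 for *Pdlim2*, and without KO 4 h replicate 3 it was 0.0545 for *Pdlim2*.

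Culture changed 6 of these 18 in each genotype (33.3%, against 33.1% of all genes in WT and 23.3% in KO), 2 up and 4 down in both. *Pdlim2*, whose product directs nuclear RelA to degradation, had the lowest log2 fold change in each, at -1.40 in WT and -0.81 in KO. *Fam105b* (-0.45) and *Tnip2* (-0.43) followed in WT, and *Zc3h12a* (-0.46) and *Rnf31* (-0.36), which encodes a ligase of linear ubiquitin chains, in KO. *Zc3h12a* was called lower in WT as well (-0.35). *Itch*, a ubiquitin ligase gene, rose by 0.25 in both, and *Tax1bp1*, an adaptor gene, was called up in KO (0.15) with a call lost without each of KO 0 h replicates 1, 2 and 3 and KO 4 h replicates 1 and 2. The interaction was called for *Bcl3* and *Pdlim2* (-0.59), 11.1% of the list against 6.39% of all genes.

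Of 24 textbook NF-kB targets 22 had a row, and 18 were tested at 0 h and 19 at 4 h. At 0 h only *Cd83* was called in this list (5.56%, against 0.987% of all genes), lower in WT (-0.31, adjusted p = 0.0356, edgeR), and the call was lost in the fit with all 12 libraries (0.0884), without replicate 1 or 2 of WT 0 h (0.0658 and 0.138) and without each of KO 0 h replicates 1, 2 and 3 (0.214, 0.0655 and 0.119). At 4 h 8 of 19 targets were called (42.1%, against 10.9% of all genes), 4 higher in WT (5.22% of all genes) and 4 lower (5.67%). Higher were *Kdm6b* (0.86), *Cd83* (0.68), *Traf1* (0.50) and *Irf4* (0.23), which encode a histone demethylase, an activation marker, a signaling adaptor and a B cell transcription factor. Lower were the cytokine genes *Lta* (-0.63) and *Ltb* (-0.48), *Cd40* (-0.44) and the death inhibitor gene *Cflar* (-0.23). The list's median was 0.111, beside 0.00483 over all genes.

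*Cd83* was at 208.4 to 248.8 CPM in uncultured WT and 267.5 to 278.9 in uncultured KO, and at 254.3 to 284.7 in cultured WT and 141.3 to 184 in cultured KO, so the genotypes changed places during culture. Its interaction was 0.98 ± 0.12 (adjusted p = 6.62e-06, edgeR), the largest of the 6 called in the list (33.3% of 18, against 6.39% of all genes). The others above 0 were *Kdm6b* (0.76) and *Traf1* (0.53), and those below 0 were *Lta* (-0.67), *Ltb* (-0.58) and *Cd40* (-0.47). Culture changed 15 of 18 targets in WT (9 up, 6 down; 83.3%, against 33.1% of all genes) and 10 in KO (3 up, 7 down; 55.6%, against 23.3%). *Tnf* and *Lta*, which encode inflammatory cytokines, fell in both genotypes, with log2 fold changes of -2.92 in WT and -2.46 in KO for *Tnf* and of -2.79 and -2.12 for *Lta*. Next lowest were *Cd40* in WT (-0.87) and the adhesion molecule gene *Icam1* in KO (-0.90). Both were also called lower in the other genotype (*Cd40* -0.39 in KO, *Icam1* -0.77 in WT). *Bcl2a1d* (1.31 in WT, 1.29 in KO) and *Bcl2a1b* (0.94 and 0.59) rose in both, but these near-identical copies can trade reads, and the KO call of *Bcl2a1b* was lost without KO 0 h replicate 2 (0.0903) or KO 4 h replicate 3 (0.0882). The survival gene *Bcl2l1* was called up in WT (0.90), though not without WT 0 h replicate 2 (0.0716) or WT 4 h replicate 1 (0.0953). Some of these changes were at low levels. *Bcl2l1* was at 3.138 to 4.168 CPM in uncultured WT and 6.223 to 8.875 in cultured WT. *Bcl2a1d* was at 1.802 to 2.947 CPM in uncultured WT and 1.517 to 2.614 in uncultured KO. *Tnf* was at 1.251 to 6.223 CPM in cultured WT and 5.269 to 7.411 in cultured KO. The growth regulator gene *Myc* was called up in both genotypes, at 0.41 in KO and 0.27 in WT, and its interaction was not called (-0.14, adjusted p = 0.633, edgeR). The number of targets called at 4 h went from 8 to 5, 4, 5 and 3 without WT 4 h replicate 3 and KO 4 h replicates 1, 2 and 3. *Kdm6b*, *Cd83* and *Cd40* were called at 4 h in all 13 alternatives, whereas *Traf1*, *Irf4*, *Lta*, *Ltb* and *Cflar* were called in 3, 2, 1, 5 and 2 of the 6 fits with a library left out. Of the 12 such fits of the interaction, *Traf1* was called in 2 and *Ltb* and *Cd40* in 9 each.

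**Figure D5:**
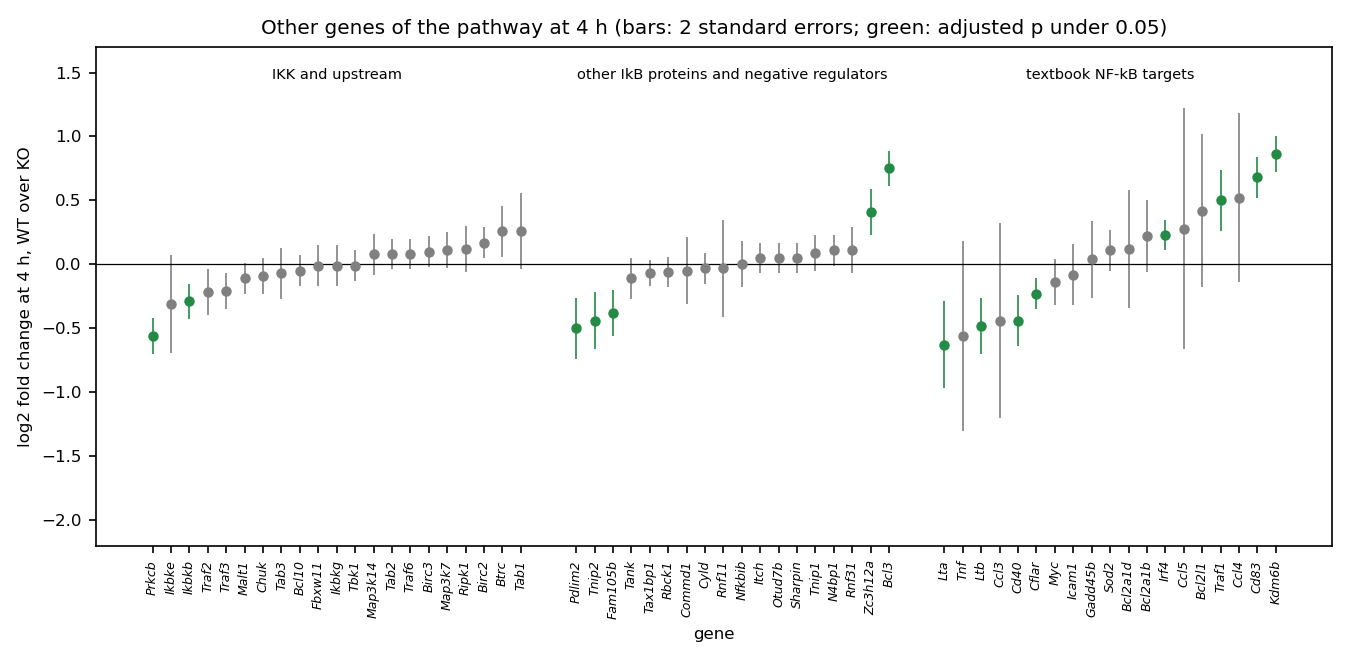
Log2 fold change of WT over KO at 4 h (vertical axis) for the tested genes of the 3 pathway lists, ordered by value within each list; bars are 2 standard errors and green marks an adjusted p under 0.05. *Prkcb* (-0.56), *Bcl3* (0.75) and *Kdm6b* (0.86) lie at ends of their lists, and the targets lie on both sides of 0.

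The genes whose course over the 12 libraries was most like that of *Rel* were *Gramd3*, *Dennd4a*, *Fryl*, *Rab43* and *Tcf12*, by the root mean square difference of centred log2 CPM over 11572 genes (0.077 to 0.094, against 0.271 for a gene that did not vary at all). *Dennd4a*, as an example, was at 484.1 ± 25.9 CPM in uncultured WT, 461.3 ± 10.6 in uncultured KO, 745.3 ± 13.4 in cultured WT and 493.6 ± 13.6 in cultured KO (SD, n = 3). For *Nfkbie* they were *Fam111a*, *Rhobtb2*, *Traf3*, *Gimap4* and *Narf* (0.080 to 0.089, against 0.368). *Traf3*, the adaptor that restrains the non-canonical branch, is also on the list of upstream genes and was at 165.7 to 170.9 CPM in uncultured WT, 158.8 to 183.3 in uncultured KO, 96.66 to 105.5 in cultured WT and 108.2 to 127.8 in cultured KO.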

How the data were processed

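RNA was measured in 12 libraries of sorted mouse follicular B cells, 3 in each of 4 groups named by genotype and hours of culture in the labels. The authors prepared libraries with a whole-transcriptome amplification kit, aligned single-end reads to mm10 with STAR, counted them with HTSeq and deposited the raw read counts of each gene, a table per time, with no normalization. Strand setting, annotation and tool versions were not given in the sources used here, so overlapping genes and near-identical copies are uncertain. The tables listed 13269 genes at 0 h and 13142 at 4 h, with 12837 in both, and 0 columns were left unmapped.

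Counts were filtered with filterByExpr, scaled by TMM and tested with edgeR 4.0.16 (glmQLFit, glmQLFTest) in R 4.3.3, with Benjamini-Hochberg adjustment over all genes tested. Genotype contrasts used the 6 libraries of a time, and culture and interaction contrasts all 12. Standard errors are the log2 fold change divided by the root of F. Levels are CPM on TMM-scaled sizes of the 12-library fit, except those of the cell type markers, which were scaled within each time. Exon lengths and positions came from GENCODE M21 (GRCm38), which matches the authors' build, and promoters from RefSeq (GRCm38.p6). The code was tested on simulated data. Alternatives were DESeq2 1.42.0, DESeq2 size factors, library totals, no filter, a replicate block, no *Rn45s* row (6.65% to 11.3% of reads), other libraries in the fit and each library left out. The *Rn45s* share was 7.78% to 11.2% in cultured WT, 6.65% to 7.59% in cultured KO and 9.23% to 11.3% at 0 h. Beyond leaving out that row, the part of this difference in the results was not tested.

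Members and gene lists were chosen with earlier results of these data known. A gene of the upstream list is not reported here and was left out of its counts. Named besides the members were the called list genes with the largest changes, up to 4 a direction at 4 h and in the interaction and up to 3 elsewhere, and the 5 genes most like *Rel* and *Nfkbie*. Chi-square per degree of freedom between replicates was 1.94 to 9.3, so no library was a copy of another in its group. It was not used to judge quality, and all libraries were kept. The highest values were those of WT 4 h replicate 1 with the other WT 4 h libraries (9.3 and 7.81, against 3.91 between those others). Nothing in the labels says that libraries came from separate cultures. The study gives 3 mice per genotype for these data in a figure of both times, so libraries of the 2 times may share mice. The p-values measure the spread between these libraries only. A permutation of 3 against 3 cannot go below 0.1.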

Additional observations from a re-analysis of the deposited data

Results flagged for a closer look

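The change of *Rel* over culture differed between genotypes by a test of the difference itself. It was 0.66 ± 0.06 in WT and 0.07 ± 0.06 in KO on the log2 scale, and the interaction was 0.59 ± 0.08 (adjusted p = 2.96e-05, edgeR). All 3 WT 4 h libraries (516.8 to 586.7 CPM) were above all 3 KO 4 h libraries (369.3 to 390.5 CPM). The groups have 3 libraries each, too few to test for a single library that stands apart.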

How the results depend on the processing

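Over 13 to 20 alternatives per comparison, the 4 h calls of *Rel*, *Relb* and *Nfkb2*, the 6 WT culture calls, the KO culture falls of *Nfkbia* and *Nfkbie* and the *Rel* interaction kept their direction and their call. The number of members called in KO culture went from 3 to 6 with library totals only, and that of IKK and upstream genes from 6 to 10 there and from 2 to 1 in the interaction. At 0 h DESeq2 called 1 gene of that list in place of 0, and the fit with all 12 libraries called 0 targets in place of 1. Signs reversed for uncalled values only. *Tnfaip3* at 0 h was -0.0049 and *Rela* in KO culture 0.04 with library totals only. With a library left out, *Tnfaip3* at 0 h ran from -0.05 to 0.07, *Nfkbiz* at 4 h from -0.13 to 0.04 and the *Nfkbiz* interaction from -0.07 to 0.12. Leave-one-out counts ranged from 26 to 161 for all genes at 0 h, with 26 without KO 0 h replicate 1, from 776 to 1361 for all genes at 4 h, from 0 to 1 for targets at 0 h, from 1 to 2 for IKK and upstream genes at 4 h and in the interaction, from 3 to 5 for other IkB proteins and negative regulators and from 3 to 8 for targets at 4 h, from 3 to 5 for members at 4 h, from 2 to 4 for members in KO culture and from 1 to 2 for members in the interaction. Members called up in KO culture, 1 otherwise, were 2 without replicate 1 of WT 0 h or of WT 4 h, by DESeq2 and with only the 2 groups compared in the fit, 4 with library totals only, and 0 without KO 0 h replicate 2 or KO 4 h replicates 1 or 2. The cause was not tested.

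The labels do not say that a replicate number marks a mouse, and replicate numbers were not taken as pairs because same-numbered libraries did not all deviate together. The correlation of deviations of same-numbered libraries was -0.099 to 0.073 between genotypes, 0.072 to 0.126 between times in WT and -0.04 to 0.152 in KO, and best with its own number for 3 of 3 WT and 2 of 3 KO libraries. This is a hint of pairing between times. The study's 3 mice per genotype, given for a figure of both times, could mean shared mice. No source states which libraries share one, and the main culture and interaction fits used no pairs. With a block for each genotype and number, 6, 3 and 1 members were called in WT culture, KO culture and the interaction, as without it. With the replicate block 0, 3, 6, 3 and 1 members were called in the 5 comparisons, against 0, 4, 6, 3 and 1 without it, the loss being *Nfkbie* at 4 h (-0.23, adjusted p = 0.0564, edgeR). *Irf4* and *Cflar* at 4 h were not called with the block (0.058 and 0.0545), and all genes called there were 1062 against 1212. With 3 libraries a group, a log2 difference of 0.24 (*Nfkbid* at 4 h) lay at the threshold.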
